A study of Mus musculus with 43 samples.

Results

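The endoplasmic reticulum chaperones described here are 10 genes, Hspa5, Hsp90b1, Hyou1, Dnajb11, Sdf2l1, Calr, Pdia4, Pdia6, Manf and Creld2, out of 56748 genes in the deposited tables. They were taken by gene symbol, each symbol matched 1 gene, and all 10 were among the 20218 genes that passed the filter on low counts. RNA was sequenced from epididymal white adipose tissue, a fat depot beside the testis, of male mice. The standard diet (SD) group held 7 libraries of mice fed 10% fat, 20% protein and 70% carbohydrate. The high-fat diet (HFD) group held 10 libraries of mice fed 60% fat, 20% protein and 20% carbohydrate. The other 3 groups received the same 60% fat diet with Ramulus Mori (Sangzhi) alkaloids (SZ-A), a mulberry twig preparation, at 200, 400 or 600 mg/kg/day, with 9, 8 and 9 libraries. The labels give no strain, age, length of feeding or number of animals per library, and no group received SZ-A on the standard diet. The labels name replicate biosamples without saying that each is a separate animal, so p-values reflect only how far these samples scatter, which may be technical in part.

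The endoplasmic reticulum is where secreted and membrane proteins fold, and its chaperones hold unfolded chains until they are folded, glycosylated and joined by disulphide bonds. When unfolded protein builds up there, the unfolded protein response cleaves the membrane-bound factor ATF6 and splices the mRNA of XBP1, and both factors raise chaperone genes. In fat, adipocytes secrete hormones and matrix, and macrophages and plasma cells, which also secrete heavily, can enter the depot during obesity.

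The DNA element through which ATF6 acts is the endoplasmic reticulum stress element, the letters CCAAT and CCACG separated by 9 bases. It was searched on both strands in the 250 bases before each transcription start in RefSeq promoters (build GRCm38.p6), where 8 of the 10 genes were matched and Manf and Hyou1 were not. Exact matches were found in 5 of the 8 promoters, those of Hspa5, Hsp90b1, Calr, Pdia6 and Creld2, against 0.113% of all 32851 promoters (37). The stretches that hold them are shown because the genes were chosen as targets of these factors. Capitals mark CCAAT and CCACG, or CGTGG and ATTGG where the element lies on the opposite strand.
Hspa5 (chr2:34772013-34772055, + strand): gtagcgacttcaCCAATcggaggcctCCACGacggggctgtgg
Hsp90b1 (chr10:86705521-86705668, - strand): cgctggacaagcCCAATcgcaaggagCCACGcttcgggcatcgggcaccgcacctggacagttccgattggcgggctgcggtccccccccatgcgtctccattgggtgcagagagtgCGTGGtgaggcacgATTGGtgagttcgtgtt
Calr (chr8:84847063-84847105, - strand): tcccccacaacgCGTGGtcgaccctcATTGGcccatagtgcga
Pdia6 (chr12:17266479-17266521, + strand): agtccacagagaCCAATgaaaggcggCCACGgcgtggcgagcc
Creld2 (chr15:88819508-88819550, + strand): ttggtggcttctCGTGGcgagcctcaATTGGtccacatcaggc

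The Hsp90b1 promoter held 2 exact matches, and it was the only 1 of the 32851 promoters with more than 1. In Hspa5 the element began 65 bases before the start, in Pdia6 98, in Creld2 126 and in Calr 162. With 1 letter of CCACG allowed to differ, 0.904% of all promoters matched, and the Pdia4 promoter was added to the 5. The promoters of Sdf2l1 and Dnajb11 held no match of either kind in this window. CCAAT alone, on either strand, is common, being present in all 8 of these promoters and in 33.8% of all promoters. A second element, ATTGG and CCACG separated by 1 base, was in none of the 8 and in 0.0304% of all promoters. The letters TGACGTGG, read on both strands, were in none of the 8 and in 0.563% of all promoters. A match is a description of the letters and not evidence of binding.

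Library totals ran from 32716294 to 44259619 counts, and the lowest count of any of the 10 in a library was 146 (Sdf2l1 in SD library 6). The libraries fell into 2 sets by how much of each library fell on small noncoding RNA genes (miRNA, snoRNA, snRNA and the like), a split that the labels do not name. Set 1 held 22 libraries (SD libraries 1 and 2 and libraries 1 to 5 of every other group) and set 2 held the other 21. SD library 4, SZ-A 400 libraries 3 and 6 and SZ-A 600 library 6 carried RNA of other tissue, seen as at least 100 genes nearly private to 1 library. All 10 adipocyte markers (Adipoq, Plin1 and others) had counts in every library, with group medians of their summed level between 25327 and 44849 CPM (read counts scaled to library size with TMM factors). Results below use all 43 libraries, and values without the 4 libraries or within a set are given where they differ.

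Per gene length, Calr and Hspa5 were the most abundant of the chaperone transcripts. In the HFD group the mean level was 227 ± 62.6 FPKM (SD, n = 10; FPKM is fragments per kilobase of transcript, scaled to library depth) for Calr and 144 ± 34.7 for Hspa5, and Hyou1 was lowest at 16.1 ± 3.36. On the standard diet the same scale ran from 89.7 ± 15.8 for Calr to 5.64 ± 1.72 for Sdf2l1 (n = 7). Sdf2l1 thus had the lowest level of the 10 on the standard diet, and on the high-fat diet it stood sixth, at 44.5 ± 22.3 FPKM, just under Pdia4 at 47.4 ± 4.20.

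**Figure D1:**
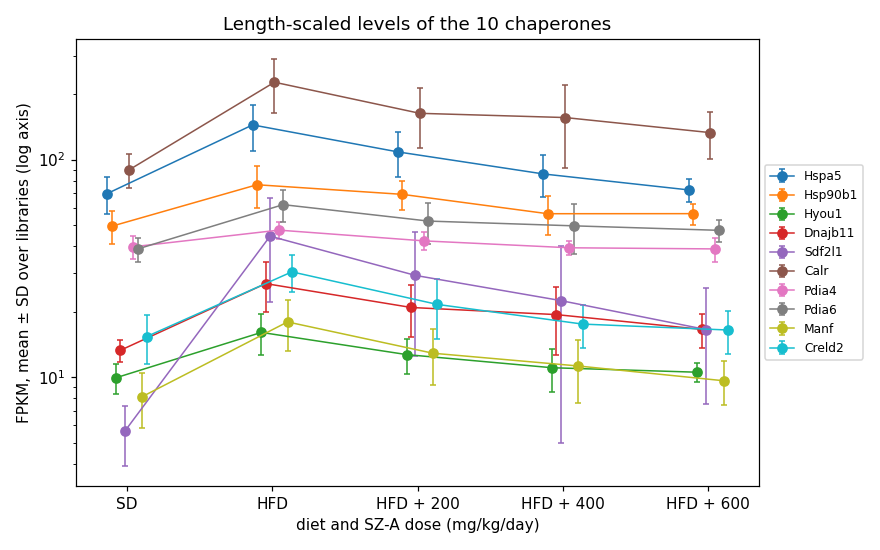
Mean FPKM (log axis) with SD over libraries for the 10 chaperones in the 5 groups, from SD and HFD to HFD with 200, 400 or 600 mg/kg/day SZ-A. Calr and Hspa5 lie above the rest in every group, and Sdf2l1 moves from 5.64 on SD to 44.5 on HFD.

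All 10 chaperones rose on the high-fat diet against the standard diet. Higher calls made up 18.4% of all genes tested in this comparison. The median log2 fold change of the 10 was 1.05, ranging from 0.30 for Pdia4 to 3.03 for Sdf2l1, beside a median of -0.05 over all genes tested. In 6 of the 10 (Hspa5, Dnajb11, Sdf2l1, Calr, Pdia6 and Manf) every HFD library lay above every SD library. How many of all genes tested were separated in this way was not counted. Fold changes and adjusted p-values are from edgeR's quasi-likelihood test with Benjamini-Hochberg adjustment over all genes tested, with 0.05 as the threshold for a call. In whole tissue, fewer cells of a type and less RNA per cell cannot be told apart.

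With SZ-A the means of all 10 stood in the same order, HFD first, then 200, 400 and 600 mg/kg/day, then SD. The libraries of neighbouring groups in that order overlapped in every gene, and of the neighbours the test separated SZ-A 600 from SD in Sdf2l1 and no other. Against HFD, none of the 10 was called at 200 mg/kg/day, 3 fell at 400 and 9 fell at 600. The next paragraphs give the genes by role.

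Hspa5 (ENSMUSG00000026864, chromosome 2) encodes BiP, the Hsp70 chaperone of the endoplasmic reticulum, which binds unfolded chains and holds the stress sensors inactive. On the standard diet its level ran from 222 to 367 CPM with a median of 272, and on the high-fat diet from 412 to 914 with a median of 629. The 2 ranges did not touch, and HFD library 4 was highest. The difference was 1.10 on the log2 scale (SE 0.167, adjusted p = 6.93e-05), a 2.14-fold rise.

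With SZ-A, Hspa5 ran from 320 to 625 CPM at 200 mg/kg/day (median 411), from 266 to 489 at 400 (median 354) and from 234 to 378 at 600 (median 310). At the highest dose all 9 libraries lay below the lowest HFD library, whereas at 200 and 400 only 5 did so. Against HFD it fell by 0.75 on the log2 scale at 400 (SE 0.158, adjusted p = 0.00609) and by 1.00 at 600 (SE 0.153, adjusted p = 2.20e-04). At 200 mg/kg/day the difference was -0.40 (SE 0.152, adjusted p = 0.562).

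Hsp90b1 (ENSMUSG00000020048, chromosome 10) encodes GRP94, the Hsp90 chaperone of the endoplasmic reticulum, which matures integrins, Toll-like receptors and some secreted factors. Its level ran from 160 to 238 CPM on SD (median 177) and from 221 to 453 on HFD (median 325). HFD libraries 8 and 10 fell inside the SD range and the other 8 lay above it. The rise was 0.68 on the log2 scale (SE 0.143, adjusted p = 5.87e-04). In the SZ-A 600 group it ran from 174 to 271 CPM (median 233), a difference from HFD of -0.45 (SE 0.131, adjusted p = 0.0243). At the lower doses the ranges were 204 to 340 CPM (200 mg/kg/day, median 298) and 179 to 314 (400, median 223), and neither difference from HFD was called, the one at 400 being -0.44 (SE 0.136, adjusted p = 0.0639).

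Hyou1 (ENSMUSG00000032115, chromosome 9) encodes GRP170, which exchanges the nucleotide of BiP. It ran from 60.7 to 89.5 CPM on SD (median 67.5) and from 71.4 to 150.2 on HFD (median 119), where only HFD library 8 fell inside the SD range. The rise of 0.74 on the log2 scale (SE 0.134, adjusted p = 2.39e-04) was followed by a difference from HFD of -0.54 at 400 (SE 0.128, adjusted p = 0.0131) and -0.62 at 600 (SE 0.124, adjusted p = 0.00415). The SZ-A 600 libraries were close together, from 67.7 to 83.9 CPM, all within the SD range. At 200 the range was 76.4 to 137 CPM (median 89.0) and at 400 it was 52.5 to 113 (median 80.3), where SZ-A 400 library 3, with other tissue RNA, was lowest and library 6, also with such RNA, highest.

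Dnajb11 (ERdj3, ENSMUSG00000004460) is a J-domain cochaperone that delivers unfolded chains to BiP, and Sdf2l1 (ENSMUSG00000022769), also on chromosome 16, binds it and keeps its clients from aggregating. Dnajb11 ran from 37.1 to 49.6 CPM on SD (median 38.9) and from 55.5 to 127 on HFD (median 90.1), with no overlap. Its rise was 1.07 (log2, SE 0.190, adjusted p = 2.20e-04), and at 600 mg/kg/day it stood at 39.2 to 72.6 CPM (median 52.0), lower than HFD by a log2 difference of -0.70 (SE 0.173, adjusted p = 0.0114). The ranges between were 45.2 to 98.4 CPM at 200 (median 60.6) and 46.0 to 104 at 400 (median 49.4), neither called against HFD.

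Sdf2l1 moved most among the 10. It ran from 4.19 to 8.70 CPM on SD (median 5.10) and from 14.3 to 89.9 on HFD (median 53.1). HFD libraries 1 to 5, those of set 1, held the 5 highest values, and libraries 8 and 10 the lowest pair. The rise was 3.03 on the log2 scale (SE 0.465, adjusted p = 7.06e-05), or 8.16-fold.

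At 200, 400 and 600 mg/kg/day the medians of Sdf2l1 were 28.4, 14.1 and 16.8 CPM, with highest libraries at 68.9, 57.4 and 42.8. The spread within SZ-A 400 was wide, with a CV of 79.4%, and libraries 2, 4 and 5 stood apart from the other 5. Against HFD the log2 difference was -0.59 at 200 (SE 0.384, adjusted p = 0.808), -0.97 at 400 (SE 0.403, adjusted p = 0.184) and -1.42 at 600 (SE 0.393, adjusted p = 0.0186). The last of these was called and the first pair were not.

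Calr (ENSMUSG00000003814, chromosome 8) encodes calreticulin, a lectin chaperone that holds glycoproteins for folding and stores calcium. It ran from 203 to 313 CPM on SD (median 231) and from 388 to 984 on HFD (median 666). No HFD library reached down to the SD range, and HFD library 10 was the closest. The rise was 1.39 (log2, SE 0.228, adjusted p = 1.20e-04).

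In the SZ-A 600 group Calr ran from 249 to 586 CPM (median 391), with 4 of 9 libraries below the lowest HFD library. Its log2 difference from HFD was -0.77 (SE 0.206, adjusted p = 0.0159), against -0.53 at 400 (SE 0.212, adjusted p = 0.162). SZ-A 400 libraries 2, 4 and 5, from 579 to 792 CPM, lay among the HFD values. The whole range at 400 was 263 to 792 CPM (median 369), and at 200 it was 269 to 738 (median 460).

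Pdia4 (ERp72, ENSMUSG00000025823, chromosome 6) and Pdia6 (ENSMUSG00000020571, chromosome 12) are disulphide isomerases, enzymes that form and rearrange disulphide bonds. Pdia4 ran from 76.0 to 111 CPM on SD (median 91.2) and from 98.9 to 135 on HFD (median 116). Its rise, 0.30 on the log2 scale (SE 0.0927, adjusted p = 0.0124), was the smallest of the 10, and 6 of 10 HFD libraries lay above the SD range. In the SZ-A 600 group, from 75.2 to 110 CPM (median 90.8), the difference from HFD was -0.29 (SE 0.0861, adjusted p = 0.0244). At 200 the range was 84.4 to 117 CPM (median 108) and at 400 it was 79.1 to 106 (median 95.7), and all 8 SZ-A 400 libraries lay below the HFD median.

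Pdia6 ran from 113 to 168 CPM on SD (median 144) and from 188 to 312 on HFD (median 235), without overlap. The rise was 0.73 (log2, SE 0.152, adjusted p = 5.97e-04). It was the 1 gene of the 10 without a call at 600 mg/kg/day, where it ran from 143 to 218 CPM (median 183) and the log2 difference from HFD was -0.40 (SE 0.139, adjusted p = 0.0537). That value lies just over the threshold, and 6 of its 9 libraries were below the lowest HFD library. Lower doses gave 132 to 275 CPM (200, median 208) and 130 to 252 (400, median 185).

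Manf (ENSMUSG00000032575, chromosome 9) and Creld2 (ENSMUSG00000023272, chromosome 15) encode small proteins of the endoplasmic reticulum that can be secreted under stress. Manf ran from 19.8 to 37.6 CPM on SD (median 24.1) and from 43.1 to 93.0 on HFD (median 61.6), again without overlap. It rose by 1.19 on the log2 scale (SE 0.209, adjusted p = 1.98e-04). With the highest dose 8 of 9 libraries were below the lowest HFD library (24.8 to 51.5 CPM, median 33.8), and the difference was -0.91 (SE 0.190, adjusted p = 0.00563). Ranges at the lower doses were 27.4 to 68.9 CPM (200, median 43.9) and 23.3 to 59.3 (400, median 39.9).

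At 400 mg/kg/day Manf missed the threshold by a small margin, at -0.67 (log2, SE 0.196, adjusted p = 0.0502). Creld2 ran from 16.0 to 31.3 CPM on SD (median 19.1) and from 28.8 to 55.9 on HFD (median 41.3). The overlap came from SD library 4, one of the libraries with other tissue RNA, whose 31.3 CPM lay above HFD library 9. The rise was 1.04 (log2, SE 0.167, adjusted p = 8.93e-05).

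Creld2 had the smallest p of the 10 at 200 mg/kg/day, with a difference of -0.49 (log2, SE 0.151, adjusted p = 0.465), which did not pass. It fell by 0.80 at 400 (SE 0.158, adjusted p = 0.00347) and by 0.90 at 600 (SE 0.153, adjusted p = 9.78e-04). At 600 its values ran from 18.3 to 31.5 CPM (median 21.5), and only SZ-A 600 library 6, another library with other tissue RNA, lay above the lowest HFD library. At 200 it ran from 20.4 to 45.1 CPM (median 30.4), with SZ-A 200 library 8, the library richest in B cell markers, highest, and at 400 from 17.5 to 32.8 (median 25.1).

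**Figure D2:**
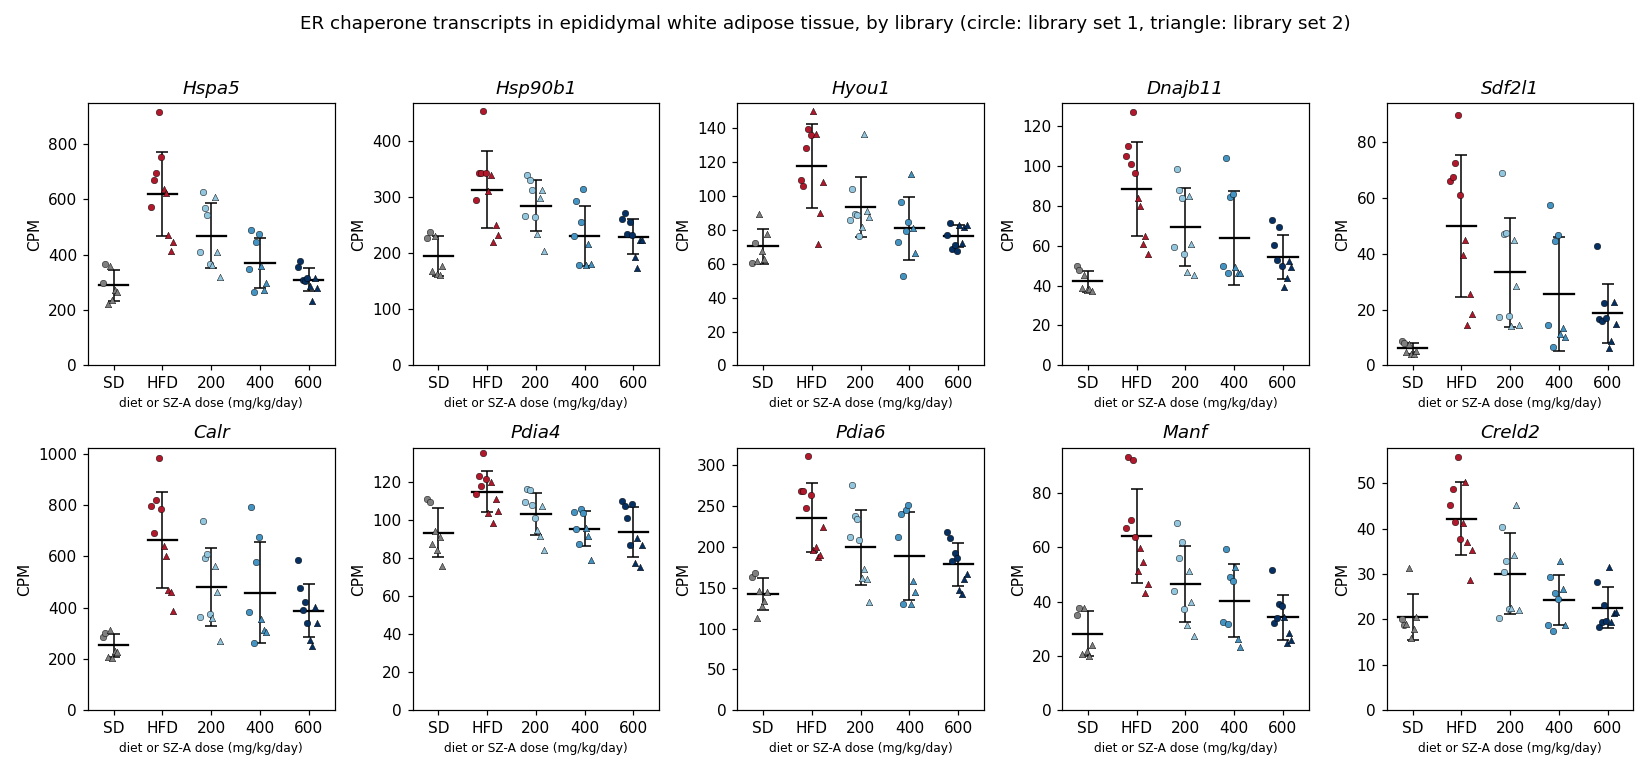
CPM of each chaperone in every library (points; circles are library set 1, triangles set 2) by group, with the group mean (bar) and SD. HFD points sit highest in all 10 panels, and at 600 mg/kg/day Hspa5 lies wholly below the lowest HFD library at 412 CPM.

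The counts per comparison follow the same path, each read against the share of all genes called in that direction. The 3 doses were compared with the same 10 HFD libraries, so their results are not independent of each other or of HFD against SD. At 200 mg/kg/day 0 of the 10 were called lower, as were 0% of all genes tested, and all 10 differences were below 0 with a median of -0.38 (log2, all genes 0.02). They ran from -0.14 for Hsp90b1 to -0.59 for Sdf2l1, with adjusted p from 0.465 to 0.862. At an unadjusted p under 0.05 there were 6 of the 10, beside 1397 of all 20218 genes in either direction. The limma voom method called 2, Hyou1 and Creld2, and 0.861% of all genes.

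At 400 mg/kg/day 3 of the 10 (Hspa5, Hyou1 and Creld2) were called lower, against 0.406% of all genes, with a median log2 difference of -0.54 (all genes 0.05). The count depended on few libraries. It was 7 without SZ-A 400 library 2 and 5 without SZ-A 400 library 5, HFD library 8 or HFD library 10. Leaving out the 4 libraries that carry other tissue RNA, only Creld2 was called (-0.84, SE 0.157, adjusted p = 0.0109), as was 0.015% of all genes. Within either library set 0 were then called, beside 0.00501% of all genes in set 1 and 0% in set 2. With library set added as a term to all 43 libraries all 10 were called, as was 1.66% of all genes.

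At 600 mg/kg/day 9 of the 10 were called lower, against 6.47% of all genes, with a median log2 difference of -0.74 (all genes 0.06). The linear trend over HFD and the 3 doses called all 10 lower, against 8.27% of all genes. Per 200 mg/kg/day the slope was -0.34 on the log2 scale for Hspa5 (SE 0.0470, adjusted p = 4.00e-05), -0.30 for Creld2 and -0.29 for Manf, with Pdia4 least steep at -0.10 (SE 0.0267, adjusted p = 0.0108).

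Each dose was also compared with the standard diet. At 200 mg/kg/day 9 of the 10 were higher than SD, all but Pdia4, against 10.8% of all genes. The count was 6 without SD library 5, SD library 6 or SZ-A 200 library 2, and 0 within either library set, where 3.56% of all genes were called higher in set 1 and 0% in set 2. At 400 the count was 3 (Dnajb11, Sdf2l1 and Calr) against 8.29% of all genes, and at 600 it was 1 (Sdf2l1, log2 difference 1.60, SE 0.441, adjusted p = 0.0352) against 2.01%. Neither dose had a chaperone called within a library set, beside 3.49% of all genes in set 1 and 0.00916% in set 2 at 400.

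A missed threshold does not place the SZ-A 600 level at that of SD. For Hspa5 the log2 difference of SZ-A 600 from SD was 0.10 with a 95% interval from -0.23 to 0.42, and for Calr it was 0.61 with an interval from 0.17 to 1.06. For Pdia4 it was 0.01, from -0.18 to 0.19. The Sdf2l1 call rested on single libraries, being lost (count 0) without any 1 of SD libraries 2, 3, 5, 6 and 7 or SZ-A 600 libraries 1, 4 and 8. At 400 against SD the count fell to 1 without SZ-A 400 library 2.

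Between doses no chaperone was called by edgeR. Lower calls made up 0.00989% of all genes for 400 against 200, 0% for 600 against 200 and 0.509% for 600 against 400. For 600 against 200 all 10 differences were below 0 (median -0.33, all genes 0.01). Of the 10, 6 had an unadjusted p under 0.05, beside 2454 of all 20218 genes in either direction. Hspa5 was nearest to a call at -0.60 (SE 0.156, adjusted p = 0.0937). For 400 against 200 the unadjusted count was 2, beside 1766 of all genes, and for 600 against 400 it was 0, beside 1575. In 600 against 200, limma voom called 7 beside 3.36% of all genes, and DESeq2 called 1 (Hspa5) beside 0.163%.

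**Figure D3:**
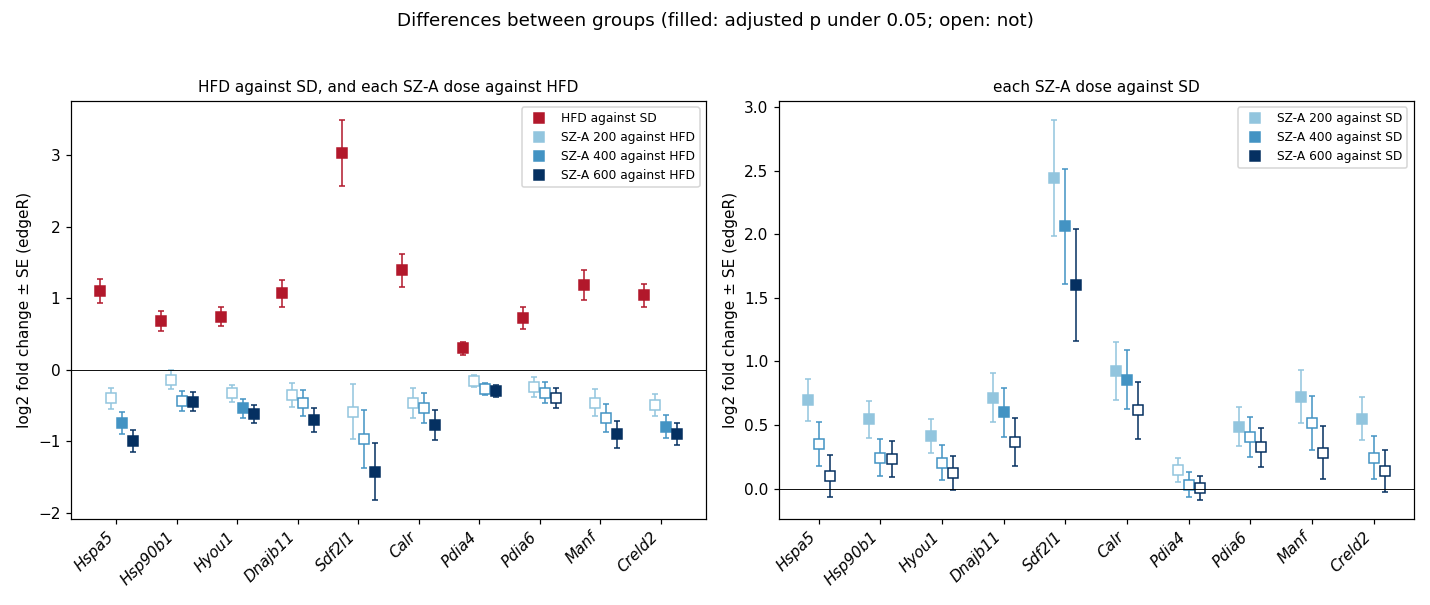
Log2 fold changes with SE from edgeR for each chaperone, at left HFD against SD and each SZ-A dose against HFD, at right each dose against SD (filled squares have an adjusted p under 0.05). All 10 HFD squares are filled and above 0, and 9 of 10 at 600 mg/kg/day against HFD are filled and below 0.

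Markers of other cell types moved with these results. Their counts are to be read beside the shares of all genes. On HFD against SD these were 18.4% higher and 13.3% lower, and at 600 against HFD 5.12% higher and 6.47% lower. All 13 macrophage markers were called higher on HFD than on SD, and their summed level ran from 570 to 2189 CPM on SD (median 608, and at most 1129 without SD library 4) and from 932 to 17061 on HFD (median 11327). At 200, 400 and 600 mg/kg/day the medians were 6631, 2113 and 3117 CPM, and 6 of the 13 were called lower at 600 than on HFD. No macrophage marker was at 0 in any library.

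Fibroblast markers were called higher on HFD in 5 of 8 and lower at 600 in 5 of 8, with medians of 1995 CPM on SD (1486 to 7496, the highest in SD library 4), 7695 on HFD (1641 to 11183) and 2350 at 600 (1298 to 4263). B and plasma cell markers were called on HFD in 0 of 10 in either direction and lower at 600 in 6 of 10, with medians of 370 CPM on SD (103 to 1177), 589 on HFD (275 to 3999) and 228 at 600 (119 to 461). The Hspa5 fall at 600 thus stands beside lower macrophage, fibroblast and B cell markers. Medians of the adipocyte sums ran the other way, at 44849 CPM on SD (18587 to 56096), 25327 on HFD (18332 to 64211) and 42982 at 600 (20036 to 49714). Only 1 of 10 adipocyte markers was called lower on HFD, beside 13.3% of all genes, and 1 higher at 600, beside 5.12%. Epithelial and duct markers, of which 8 of 10 were tested, were called lower on HFD in 5 and higher at 600 in 5. Their medians were 7.27 CPM on SD (3.20 to 909), 3.73 on HFD (2.51 to 13.1) and 8.09 at 600 (1.61 to 1418). The highest SD and SZ-A 600 values were in SD library 4 and SZ-A 600 library 6, both with other tissue RNA. The part of these cells in the chaperone differences was not tested.

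Within groups the chaperones and the macrophage markers went together. Over 39 libraries (those with other tissue RNA left out), with group and library set means removed, the mean standardised log2 CPM of the 10 had a Pearson r of 0.87 and a Spearman rho of 0.88 with the log2 macrophage sum. Leaving out the 2 libraries whose log2 macrophage sum, with those means removed, lay farthest from the median, r was 0.87. Within sets it was 0.87 (21 libraries) and 0.88 (18). The same r was 0.82 for fibroblast markers, 0.45 for B and plasma cell markers and -0.78 for adipocyte markers. These are descriptions, since all values come from the same libraries and share their depth, though only the chaperone values carry TMM factors.

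The upper end of the SD range of macrophage sums comes from SD library 4, which carries other tissue RNA, and the other 6 SD libraries ended at 1129 CPM. HFD library 8, at 932 CPM, lay within the range of those 6, and 7 of the 10 chaperones in it were above the highest SD library. Its Hspa5 level was 473 CPM, against an SD maximum of 367. SZ-A 400 library 3 and SZ-A 600 library 6, at 689 and 869 CPM, also lay within that range, and both carry other tissue RNA. They had 0 and 1 of the 10 above the highest SD library. SZ-A 400 library 6, also with other tissue RNA, lay below every SD library at 472 CPM. It had 5 of the 10 above the highest SD library. Its adipocyte sum was 4622 CPM (group median 34174) and its epithelial and duct sum 28433 (group median 12.4). Its levels are therefore not those of fat alone.

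A further 7 libraries fell within the SD range only with SD library 4 counted. HFD library 10, at 1304 CPM, had 8 of the 10 above the highest SD library and Hspa5 at 446 CPM. SZ-A 200 libraries 1, 5 and 9, at 1464, 1941 and 1963 CPM, had 7, 6 and 1 above it. SZ-A 400 libraries 1 and 8, at 1463 and 1718 CPM, had 4 and 1, and SZ-A 600 library 7, at 1660 CPM, had 1. The difference between these libraries was not tested, and genes above the highest SD library were not counted over all genes.

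**Figure D4:**
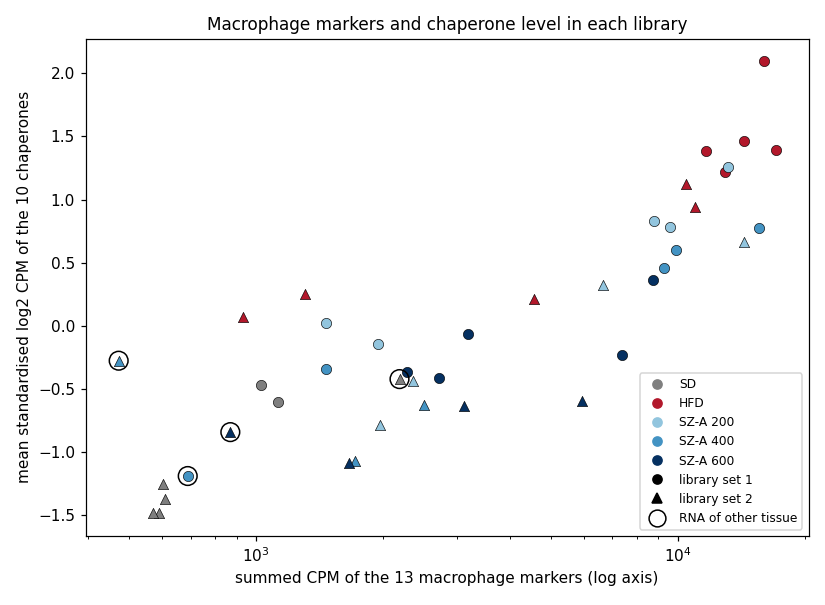
Each library's summed CPM of 13 macrophage markers (log axis) against the mean standardised log2 CPM of the 10 chaperones, coloured by group, with rings on the 4 libraries with other tissue RNA. SD points run from 570 to 1129 CPM apart from the ringed SD library 4 at 2189, and HFD libraries 8 and 10 lie at 932 and 1304 CPM, above all SD points in chaperone level.

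Library by library, the same few samples carried the extremes. HFD library 4 was highest in its group for 8 of the 10, SZ-A 200 library 2 for 8 and SZ-A 600 library 1 for 6, while SZ-A 200 library 9 was lowest for 7. The closest pair was Dnajb11 and Sdf2l1 (r = 0.93 over the 39 libraries, with group and library set means removed). Calr (0.91) and Sdf2l1 (0.90) followed the mean of the other 9 most closely. Pdia4 followed it least (0.22), and its loosest pairing was with Dnajb11 (0.07).

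By the same measure over all genes tested, the genes outside the 10 nearest to their mean were Pdia3 (0.95), Rpn1 (0.93), Eif4a-ps4 (0.91), Clic1 (0.91) and Ctsh (0.90). Eif4a-ps4 is a pseudogene by its symbol, and its reads may be shared with its parent gene. Pdia3 is a disulphide isomerase that works with calreticulin, Rpn1 a subunit of the glycosylating enzyme complex, and Ctsh a lysosomal protease. Pdia3 had a mean of 206 CPM on SD and 415 on HFD, a rise of 1.01 (log2, SE 0.217, adjusted p = 7.40e-04).

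Other genes of the pathway were counted in 7 lists, to be read beside the 18.4% of all genes called higher on HFD and the 13.3% called lower. Against SD, 11 of 15 folding enzymes and lectins rose and none fell (median log2 0.58), among them P4hb (0.78) and Pdia5 (0.96), both disulphide isomerases, and Ppib (0.82), a proline isomerase. Of 18 genes of translocation and transport 15 rose (median 0.56), among them Sec11c (1.45) and Spcs3 (1.00) of the signal peptidase, Sec61b (1.01) of the translocon and Kdelr3 (1.36), a receptor that retrieves escaped chaperones.

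Of 9 further cochaperones 2 rose, Sdf2 (0.46) and Dnajc1 (0.23), a share near that of all genes. Of 13 genes of endoplasmic reticulum-associated degradation 4 rose, Edem2 (0.87), Edem1 (0.63), Sel1l (0.32) and Os9 (0.29). Of 11 sensors and transcription factors 5 rose, with Creb3l1 (0.95), Ddit3 (0.69), Atf6b (0.58) and Eif2ak3 (0.53), which encodes the sensor PERK, among them, and 1 fell.

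Targets of ATF4, the factor downstream of PERK, were divided. Of 10, Asns (-1.48), Chac1 (-1.17) and Sesn2 (-1.04) fell, beside 13.3% of all genes called lower. A rise was called in 2, near the 18.4% of all genes. Slc7a11 (2.49, SE 0.710) was among them, from a low mean of 0.395 CPM on SD to 2.24 on HFD. The list median was -0.51 where the 10 chaperones had 1.05. Cytosolic and mitochondrial chaperones, which serve other compartments, had 3 of 13 higher, including Hspa8 (0.83) and Hspa4 (0.50), near the 18.4% of all genes, with 1 lower and a median of -0.14.

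At 600 mg/kg/day against HFD lower calls made up 6.47% of all genes and higher calls 5.12%. In these lists the counts lower were 2 of 15 folding enzymes (Pdia5, -0.54), 4 of 18 in translocation and transport (Kdelr3, -1.06, and Spcs3, -0.67), 4 of 11 sensors and transcription factors (Creb3l1, -0.84, Ddit3, -0.51, and Atf6b, -0.37) and 6 of 13 cytosolic and mitochondrial chaperones (Hspa8, -0.76, and Hspa4, -0.36). None of the cochaperones, degradation genes or ATF4 targets was called, and no gene of these 7 lists was called higher. Hspa1a (-2.81) and Hspa1b (-2.36) were also lower at 600, but they are near-identical copies and their counts are uncertain apart. At 200 and 400 mg/kg/day no gene of the 7 lists was called in either direction.

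Within library sets the differences kept their direction. HFD exceeded SD in all 10 within each set, with 9 called in set 1 (all but Pdia4) and 6 in set 2, which has 5 SD and 5 HFD libraries. Higher calls made up 17.5% of all genes in set 1 and 0.925% in set 2. With library set as a term over all 43 libraries all 10 were called, as was 20.2% of all genes. For Hspa5 the rise was 1.05 (SE 0.235, adjusted p = 0.00327) in set 1 and 0.91 (SE 0.188, adjusted p = 0.0321) in set 2.

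At 600 mg/kg/day against HFD all 10 were called lower in set 1 and 0 in set 2, where all 10 were below 0 and had an unadjusted p under 0.05. How many of all genes passed that unadjusted threshold in set 2 was not counted. Lower calls made up 12.8% of all genes in set 1 and 0% in set 2. Hspa5 was lower by -1.07 (SE 0.169, adjusted p = 0.00102) in set 1 and -0.89 (SE 0.201, adjusted p = 0.233) in set 2. The trend called 10 in set 1, beside 12.5% of all genes, and 0 in set 2, beside 0%. The difference between sets was tested as an interaction, and no chaperone had an unadjusted p under 0.05 in any comparison, the smallest being 0.197.

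**Figure D5:**
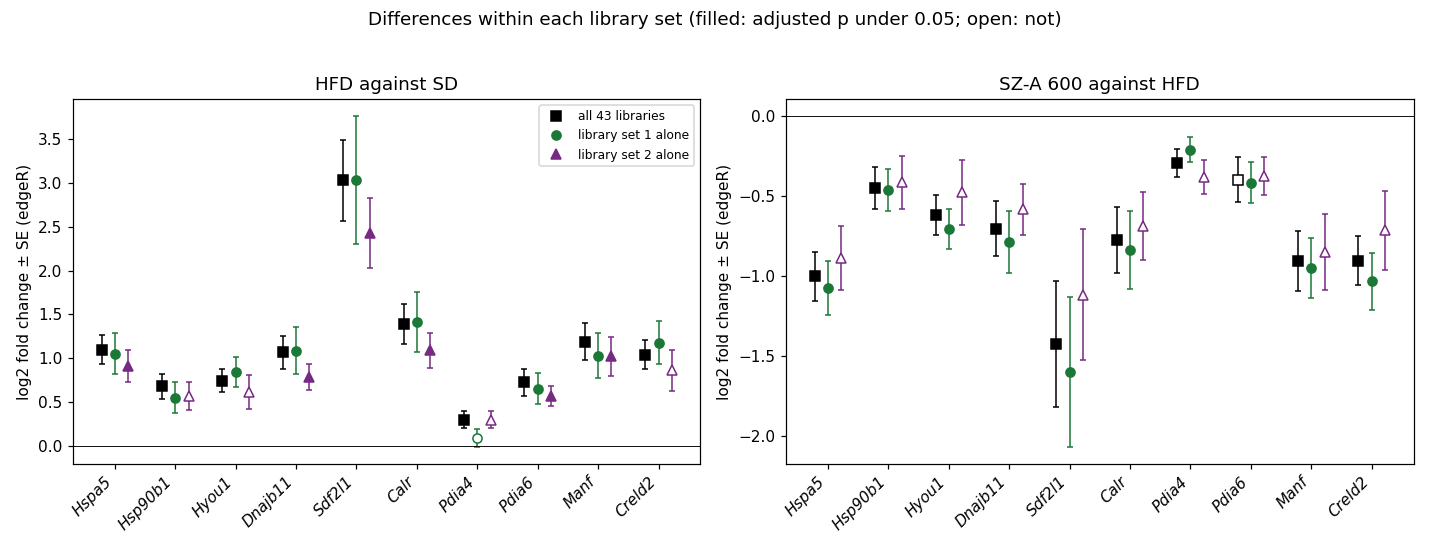
Log2 fold changes with SE from edgeR for HFD against SD (left) and SZ-A 600 against HFD (right), over all 43 libraries and within each library set (filled symbols have an adjusted p under 0.05). Every symbol is above 0 at left and below 0 at right, with Hspa5 at -1.07 in set 1 and -0.89 in set 2 at right.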

How the data were processed

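Libraries were made from poly(A)-selected RNA and were strand-specific, per the labels. The authors deposited read counts per gene, which were tested as deposited, and FPKM values per gene, which were used for levels between genes and in alternatives (log2 with a pseudocount of 1 or 0.1). No aligner or counter is named in the labels or headers. The submitters' processing notes name mm10, but gene positions in the deposited tables differ from that build, so only RefSeq promoter coordinates (GRCm38.p6) are printed. Counts were filtered with filterByExpr and tested with edgeR 4.0.16 (TMM, robust quasi-likelihood, all 43 libraries in 1 fit, no replicate block) in R 4.3.3, with Benjamini-Hochberg adjustment over 20218 genes. CPM values of single genes use TMM factors, and summed CPM of markers use library totals without them. Alternatives used DESeq2 1.42.0 and limma 3.58.1. The tests were tested on simulated data. Library depth was 32716294 to 44259619 counts. The chaperones, pathway lists and marker lists were chosen with earlier results of these data known. Named genes were all 10 chaperones, up to 4 called genes of smallest p per pathway list, and the 5 genes nearest in residual pattern. Whether the shared replicate numbers pair libraries was checked by the residual correlation of same-numbered libraries, which ran from -0.36 to 0.54 over 79 pairs. Library set follows the numbers in part, so this check cannot settle pairing, and the main fit treated no libraries as pairs. No 2 libraries were identical.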

Additional observations from a re-analysis of the deposited data

Results flagged for a closer look

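In 50 combinations of a chaperone and a group, the highest or lowest library was compared with the others by Dixon's test, which chance passes in about 1 in 20, and 4 libraries stood apart. Hsp90b1 in HFD library 4 was 453 CPM, with the next library at 344. Hyou1 in SZ-A 200 library 7 was 137 CPM, with the next at 104. Sdf2l1 in SZ-A 600 library 1 was 42.8 CPM, with the next at 22.9. Creld2 in SD library 4, which holds RNA of other tissue, was 31.3 CPM, with the next at 20.4.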

How the results depend on the processing

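No chaperone's difference that was called changed sign under any alternative, and the counts of chaperones called were as follows. HFD against SD gave 6 in library set 2 alone, and SZ-A 200 against HFD gave 2 with limma voom, with set as a term without the other-tissue libraries, and in set 1 without them. SZ-A 400 against HFD gave 5 with DESeq2 or upper-quartile factors, 6 with DESeq2 and in set 1, 10 with set as a term, 1 without the other-tissue libraries, 5 with both changes, and 0 with only its own groups, in set 2, and in either set without the other-tissue libraries. SZ-A 600 against HFD gave 0 in set 2 with or without those libraries, where the trend gave 0 and 1. Against SD, the count at 200 was 0 in either set and 2 and 0 without the other-tissue libraries. At 400 it was 10 with limma voom and 0 with own groups, in either set and in set 2 without those libraries. At 600 it was 7 with limma voom, 0 on log2(FPKM + 1), with no filter and in either set with or without those libraries, and 2 with own groups and with set as a term without those libraries. For 600 against 200 it was 1 with DESeq2, 7 with limma voom, and 1 with set as a term with or without those libraries. Leaving out 1 library gave 10 to 10 for HFD against SD, 0 to 0 for 200, 3 to 7 for 400, 7 to 10 for 600 and 9 to 10 for the trend, and against SD 6 to 9, 1 to 4 and 0 to 1. Counts over all genes also changed with the alternative. For HFD against SD, limma voom called 6700 of 20218 genes higher, where edgeR with TMM factors called 3725. For SZ-A 400 against HFD, DESeq2 called 201 lower, where edgeR with TMM factors called 82. The cause of the differences between alternatives was not tested, and single sets also hold fewer libraries.

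With a replicate block the count was 10 for SZ-A 400 against HFD, 6 for SZ-A 400 against SD and 5 for SZ-A 600 against SD, and within 1.5 times the unblocked count elsewhere. For SZ-A 400 against HFD the blocked fit called 282 of all 20218 genes lower, where the unblocked fit called 82. Same-numbered libraries were more alike, with a median residual correlation of 0.20, against -0.04 for other numbers. Only group means were removed there, and library set follows the numbers in part. The check therefore cannot tell pairing from library set, and whether the numbers mark pairs is not known. The alternatives within sets without other-tissue libraries, and without SZ-A 200 library 8, were chosen after seeing the data. Depth did not limit these genes, the lowest of which, Sdf2l1, had a median of 5.10 CPM on SD.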
